A study of Arabidopsis thaliana with 7 samples.

Results

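The cytosolic translation initiation factors described here are the products of 48 genes among the 27655 in the deposited tables. The genes were chosen by locus for their annotated function, as factors eIF1, eIF1A, eIF2, eIF3, eIF4, eIF5, eIF5A and eIF5B and the poly(A)-binding proteins (PABPs), and the list was drawn up with earlier results of these data known. All 48 had counts in every library, the lowest being 54, and all 48 were among the 20795 genes that passed the filter on low counts.

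Initiation begins when eIF2, loaded with GTP and the initiator tRNA, joins the small ribosomal subunit together with eIF1, eIF1A, eIF3 and eIF5. The eIF4 factors bind the mRNA cap and unwind the leader, PABPs bind the tail, and the loaded subunit scans to the start codon, where eIF5 stimulates GTP hydrolysis by eIF2. eIF5B, a GTPase that contacts eIF1A, then brings in the large subunit. In what follows, eIF1A, eIF1, eIF5 and eIF2, which join the small subunit before that step, are called its partners.

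RNA came from whole 18-day-old seedlings kept at 23 °C under days of 16 h light and 8 h dark. There were 2 libraries of wild type (WT), 3 of hot3-2 and 2 of hot3-3, all of the Columbia ecotype. Each hot3 allele carries a T-DNA insertion in HOT3, the gene for eIF5B1, and the study's gene map draws both insertions within exons, that of hot3-2 nearer to the 3′ end. Library totals ran from 14090881 to 34696683 counts. Nothing states that replicates came from separate cultures, so the P values measure the spread between these libraries only. Both alleles were compared with the same 2 WT libraries. In RNA of whole seedlings, fewer cells of a type and less RNA per cell cannot be told apart.

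The first question was how the mutated gene and its relatives were expressed. HOT3 (AT1G76810, chromosome 1, 28830902 to 28836748, minus strand, TAIR10.1) had less transcript in hot3-2, but not in libraries labelled hot3-3. Its normalised count (CPM, the count scaled to library size) was 170.5 and 169.3 CPM in WT, 77.7, 97.3 and 92.4 CPM in hot3-2, and 195.3 and 271 CPM in hot3-3. Every hot3-2 library was below WT and every hot3-3 library was above it. The log2 fold change was -0.93 ± 0.14 (SE) in hot3-2 (adjusted P of 0.000525, edgeR quasi-likelihood test), just short of a log2 change of 1. In hot3-3 it was 0.46 ± 0.15 (SE) with adjusted P of 0.0318, by the same edgeR test. That P rose to 0.0826 in edgeR without WT replicate 1, to 0.112 without WT replicate 2, to 0.0560 without hot3-2 replicate 3 and to 0.281 without hot3-3 replicate 2, when the change was 0.20. Reads are counted over the whole gene, so the count is no check of where transcripts end, and it does not check the label hot3-3. The study examined the insertion sites by read coverage along the gene, which is not part of the counts used here.

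**Figure D1:**
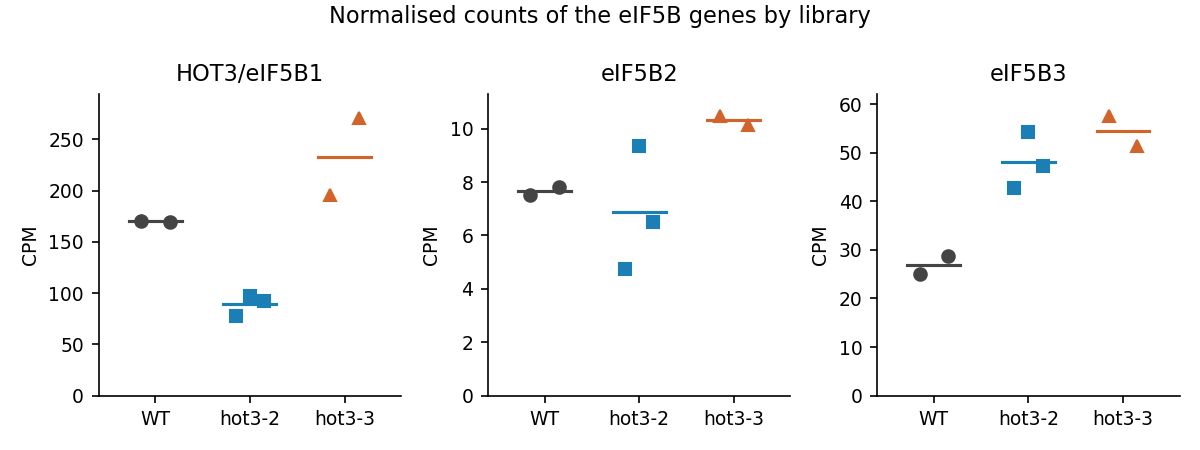
Normalised counts (CPM, y axis) of the 3 eIF5B genes in each library, by genotype; points are libraries and lines are group means. HOT3 was lowest in the 3 hot3-2 libraries, at 77.7 to 97.3 CPM, while eIF5B3 was higher in all 5 mutant libraries than in WT.

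eIF5B3 (AT1G21160), a second eIF5B gene, rose in both alleles. Its level was 25.0 and 28.8 CPM in WT, 42.7, 54.4 and 47.2 CPM in hot3-2, and 57.6 and 51.4 CPM in hot3-3, so that all mutant libraries lay above WT. On the log2 scale it changed by 0.83 ± 0.12 (SE) and 1.01 ± 0.13 (SE) at edgeR adjusted P values of 0.000432 and 0.000179. The change in hot3-3 lay at the fold limit used by the study and was under it without WT replicate 1 (0.91), hot3-2 replicate 1 (0.996) or hot3-3 replicate 1 (0.93). Exons of eIF5B3 overlap those of AT1G21170 on the other strand by 466 bases, and reads there can be told apart only if the counting used strand, which is not stated.

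eIF5B2 (AT1G76720) lies 30.5 kb from HOT3 and was the least expressed of the family. It had 7.50 and 7.80 CPM in WT, 4.73, 9.36 and 6.52 CPM in hot3-2, and 10.5 and 10.13 CPM in hot3-3. The hot3-2 libraries spanned the WT values, and the log2 changes of -0.19 ± 0.23 (SE) and 0.43 ± 0.24 (SE) did not pass (adjusted P of 0.533 and 0.171 in edgeR). HOT3 and eIF5B2 share an identical exonic stretch of 116 bases. Of the eIF5B2 exon sequence, 6.46% of 50-base windows and 0.57% of 100-base windows also occur in HOT3. Pairs that fit both genes would have been left out, which may lower the count of eIF5B2 by an amount that was not measured. Another locus, eIF5B4, had 0 counts in every library, which allows up to 3 counts in each.

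Set per kilobase of exon, HOT3 made up 80.7% and 82.6% of the summed eIF5B level in WT, 58.0% to 60.8% in the hot3-2 libraries, and 72.2% and 79.9% in hot3-3. The share of eIF5B3 was 13.5% and 15.3% in WT, 34.6% to 36.5% in the hot3-2 libraries, and 23.7% and 16.9% in hot3-3. The summed level of the family was 44.7 ± 0.508 CPM per kb in WT (SD, n = 2), 32.2 ± 4.05 in hot3-2 (SD, n = 3) and 65.4 ± 10.4 in hot3-3 (SD, n = 2). The sum in hot3-2 was below that in WT in all 3 libraries, with the rise of eIF5B3 included.

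Across the 48 genes, most transcripts were higher in both alleles than in WT. With an adjusted P below 0.05 in edgeR and no fold limit, 38 of 48 were higher in hot3-2, where 26.2% of all tested genes were, and 3 were lower, where 23.1% of all tested genes were. In hot3-3, 38 were higher beside 27.0% of all tested genes, and 3 were lower beside 24.1%. The median log2 change over the 48 genes was 0.69 in hot3-2 and 0.76 in hot3-3, against 0.00 and 0.01 over all tested genes. At the study's threshold, which combines an adjusted P below 0.01 and a log2 change of at least 1, 8 of 48 were higher in hot3-2 (7.80% of all genes) and 12 in hot3-3 (9.63% of all genes). At that threshold 0 were lower in either allele (3.88% and 4.91% of all genes), by edgeR and by DESeq2 alike. A negative change with an unadjusted P below 0.05 in edgeR was seen in 4 and 3, and in 5589 and 5641 of all 20795 tested genes. In 39 of 48 genes all 5 mutant libraries lay above both WT libraries, as they did in 29.6% of all tested genes, and in 3 all 5 lay below, as in 27.3% of all tested genes.

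**Figure D2:**
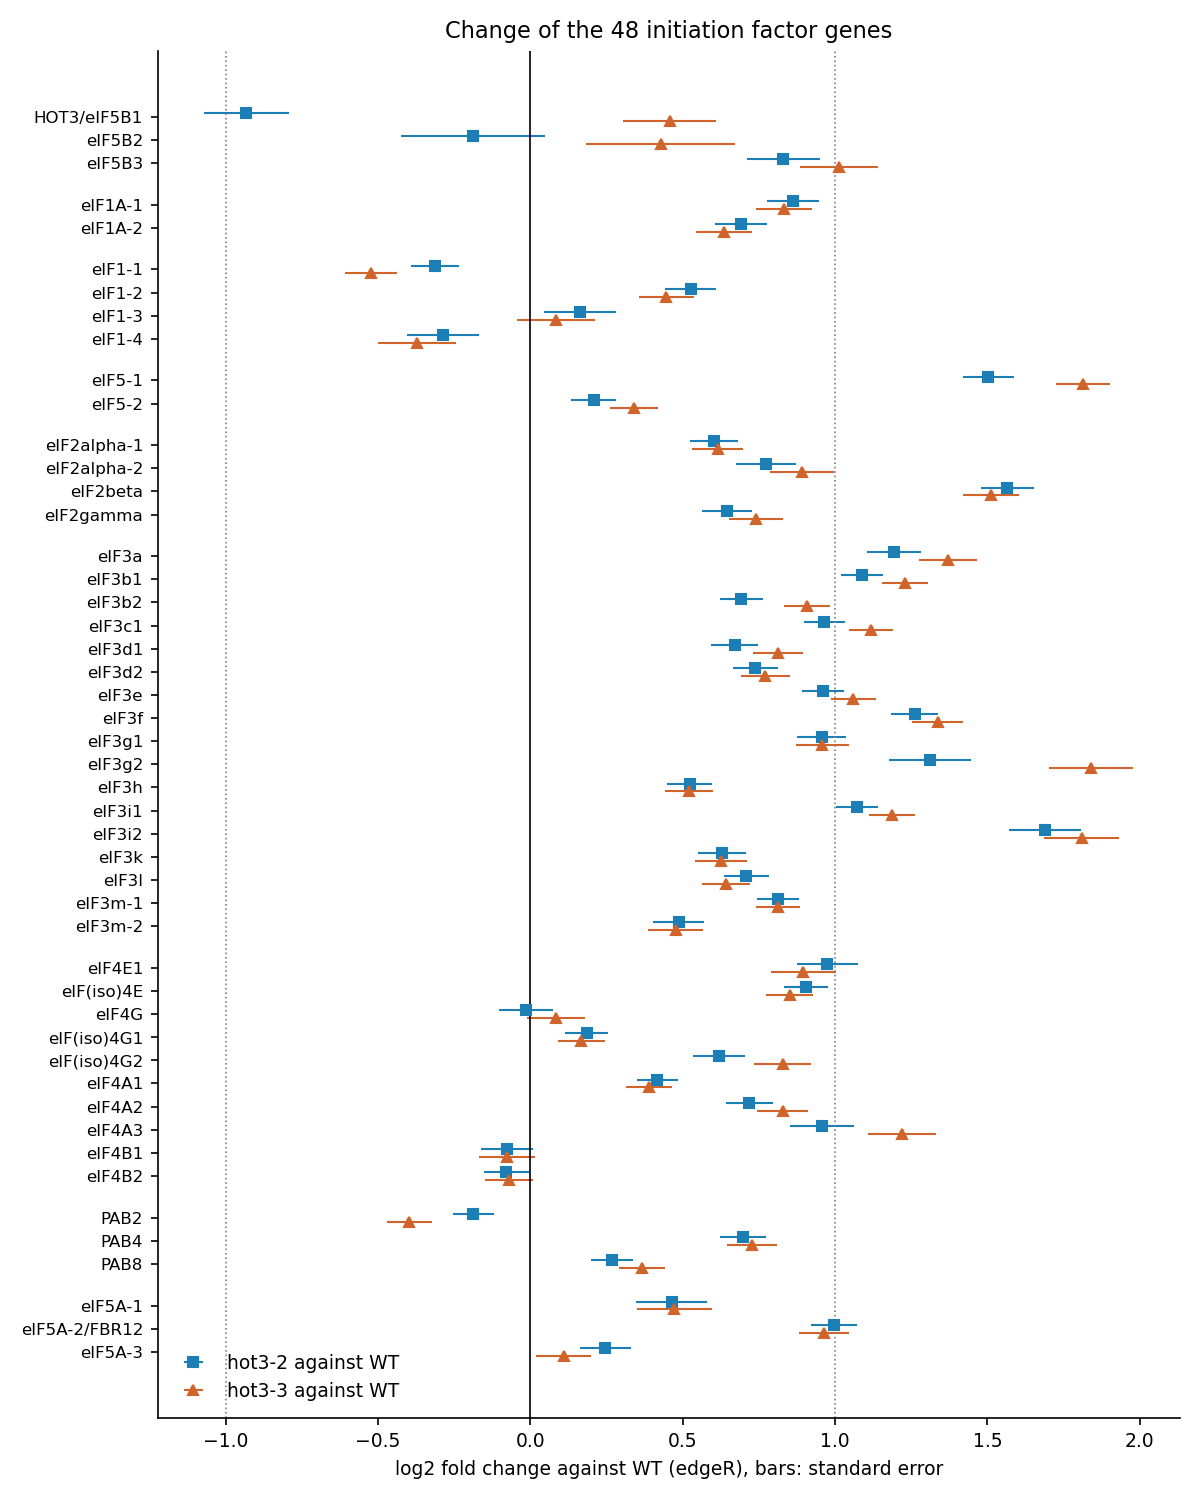
Log2 fold change against WT (x axis) of the 48 genes, grouped by factor, in hot3-2 (squares) and hot3-3 (triangles); bars are standard errors from edgeR, the solid line is 0 and dotted lines mark changes of 1 in size. All 17 eIF3 genes lie to the right of 0 in both alleles, and HOT3 is the gene whose change differs most between them.

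The 48 genes together took 0.520% and 0.542% of all counts in WT, 0.796% to 0.804% in the hot3-2 libraries, and 0.867% and 0.882% in hot3-3. Their summed level was 5252 ± 120 CPM in WT (SD, n = 2), 8195 ± 168 CPM in hot3-2 (SD, n = 3) and 8549 ± 52.6 CPM in hot3-3 (SD, n = 2). The groups did not overlap.

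Because many members moved together, the 250 bases before each annotated start (TAIR10.1, RefSeq) were searched for 2 elements known from promoters of plant translation genes. The telo box was searched as AAACCCT and the site II element as TGGGCC or TGGGCT, each on both strands, and matches may overlap one another. Site II was found in 16 of 48 members (33.3%) and in 19.2% of all 27445 promoters, and the telo box in 4 of 48 (8.3%) and in 7.3% of all promoters. In the last 100 bases the shares were 27.1% against 12.5% for site II and 4.2% against 3.8% for the telo box. These tallies kept bases that are exons of a neighbouring gene, which for eIF2alpha-1, eIF3e and eIF5A-3 made up all 250 bases. The 16 members with site II had median log2 changes of 0.76 in hot3-2 and 0.87 in hot3-3, and the 32 without it 0.65 and 0.64, with ranges that overlapped widely. The windows of 4 members with large rises or the highest level are shown 5′ to 3′ up to the annotated start, with matches in capitals and without bases that are exons of a neighbouring gene. That of eIF2beta holds neither element, that of eIF3g2 holds 3 telo boxes and 2 site II elements, that of eIF3i2 holds 1 site II element, and that of eIF5A-2 holds 2 that share 1 base.
eIF2beta, chr5:7097146-7097395, minus strand: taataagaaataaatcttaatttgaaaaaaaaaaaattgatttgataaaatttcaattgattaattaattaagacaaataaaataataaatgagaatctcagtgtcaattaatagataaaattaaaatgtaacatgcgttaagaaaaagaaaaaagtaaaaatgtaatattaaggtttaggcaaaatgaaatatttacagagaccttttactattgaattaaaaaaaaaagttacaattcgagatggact
eIF3g2, chr5:1807920-1808110, plus strand: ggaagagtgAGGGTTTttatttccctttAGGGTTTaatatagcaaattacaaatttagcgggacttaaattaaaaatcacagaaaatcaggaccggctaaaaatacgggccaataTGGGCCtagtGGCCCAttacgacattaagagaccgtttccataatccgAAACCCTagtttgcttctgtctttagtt
eIF3i2, chr2:19007953-19008174, minus strand: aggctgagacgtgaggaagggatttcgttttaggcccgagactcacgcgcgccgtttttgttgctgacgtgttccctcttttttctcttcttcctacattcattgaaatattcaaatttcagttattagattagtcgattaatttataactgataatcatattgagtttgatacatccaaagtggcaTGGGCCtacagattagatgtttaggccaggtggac
eIF5A-2/FBR12, chr1:9205550-9205799, plus strand: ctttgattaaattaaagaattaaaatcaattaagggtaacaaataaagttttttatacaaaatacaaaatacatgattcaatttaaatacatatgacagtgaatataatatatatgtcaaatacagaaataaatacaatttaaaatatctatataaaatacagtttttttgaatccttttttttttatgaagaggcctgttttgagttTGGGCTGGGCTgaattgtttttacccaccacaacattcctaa

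The partners of eIF5B were then set beside it. eIF1A, the factor that eIF5B contacts on the ribosome, is encoded by 2 genes, and both rose in both alleles. eIF1A-1 (AT2G04520) had 84.98 and 81.3 CPM in WT, 164.9, 141.6 and 146.5 CPM in hot3-2, and 146.5 and 149.5 CPM in hot3-3. eIF1A-2 (AT5G35680) had 69.7 and 63.3 CPM in WT, 114.9, 101.1 and 105.7 CPM in hot3-2, and 102.8 and 103.9 CPM in hot3-3. Mutant and WT libraries did not overlap in either gene. Exons of eIF1A-2 overlap AT5G35670 on the other strand by 139 bases. The log2 changes of eIF1A-1 were 0.86 ± 0.09 (SE) and 0.83 ± 0.09 (SE) at edgeR adjusted P values of 5e-05 and 8.02e-05. Those of eIF1A-2 were 0.69 ± 0.09 (SE) and 0.64 ± 0.09 (SE) at edgeR adjusted P values of 0.000171 and 0.000401.

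eIF5, which triggers GTP hydrolysis on eIF2, gave one of the largest rises. eIF5-1 (AT1G36730) had 148.3 and 127.8 CPM in WT, 388.6, 399 and 385 CPM in hot3-2, and 483.6 and 485.9 CPM in hot3-3. The 3 genotypes did not overlap, and hot3-3 was the highest, lying above hot3-2 as in 4696 of 20795 tested genes. The log2 changes of eIF5-1 were 1.502 ± 0.08 (SE) and 1.81 ± 0.09 (SE) at edgeR adjusted P values of 2.95e-06 and 1.53e-06. The other copy, eIF5-2 (AT1G77840), changed by 0.21 and 0.34 at edgeR adjusted P values of 0.0404 and 0.00614. The first was 0.0539 to 0.153 under 13 of 14 other settings, which included each WT and hot3-3 library and hot3-2 replicates 1 and 3 left out, and the second was 0.0523 without hot3-3 replicate 1.

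eIF2 carries the initiator tRNA, and its 4 genes rose in both alleles, by 0.60 to 1.57 in hot3-2 and 0.61 to 1.51 in hot3-3 on the log2 scale. The beta subunit, to which eIF5 binds, rose most. eIF2beta (AT5G20920) had 69.1 and 63.5 CPM in WT, 206.7, 181.9 and 199.4 CPM in hot3-2, and 188.5 and 189.4 CPM in hot3-3. All mutant libraries were above WT and the alleles overlapped. Its log2 changes were 1.57 ± 0.09 (SE) and 1.51 ± 0.09 (SE) at edgeR adjusted P values of 2.94e-06 and 3.28e-06. Per kilobase, the summed alpha, beta and gamma levels were 61.0, 46.2 and 47.4 CPM per kb in WT, and the beta level became the highest of these subunits in hot3-2 (95.9, 136.6 and 74.0) and in hot3-3 (98.9, 131.7 and 79.2). These values are means over the libraries of each genotype.

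The genes for eIF1, which guards start codon choice, did not move together. Of the 4, eIF1-2 (AT5G54760) was higher in both alleles (0.53 and 0.45, adjusted P of 0.000765 and 0.00286 in edgeR), and eIF1-1 (AT4G27130) was lower in both (-0.31 and -0.52, adjusted P of 0.00888 and 0.000891 in edgeR). The eIF1 gene with the highest level per kilobase over all libraries, eIF1-3 (AT5G54940), had 191.1 and 239.8 CPM in WT, 254.6, 230.3 and 239.3 CPM in hot3-2, and 204.9 and 251.9 CPM in hot3-3. These groups overlapped, and its changes of 0.16 ± 0.12 (SE) and 0.08 ± 0.13 (SE) did not pass (adjusted P of 0.279 and 0.612 in edgeR). The summed eIF1 level per kilobase was 1.06 times WT in hot3-2 and 0.973 times WT in hot3-3.

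**Figure D3:**
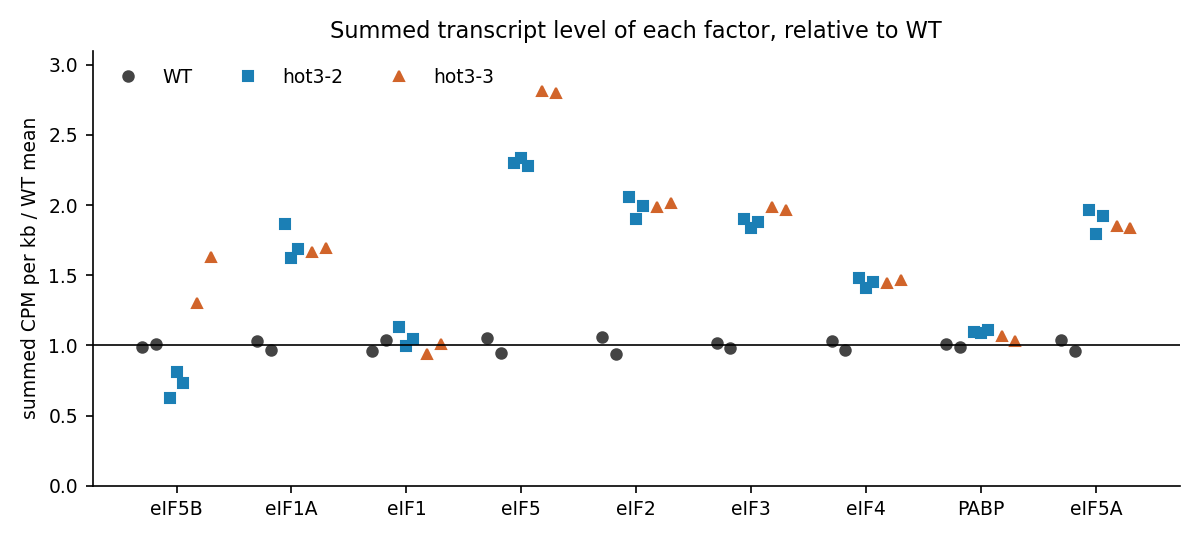
Summed CPM per kb of all genes of each factor, divided by the WT mean (y axis), for each library of the 3 genotypes. The eIF5B sum was 0.721 times WT in hot3-2 and 1.47 times in hot3-3, whereas eIF5 was at 2.31 and 2.81 times and eIF1 and PABP stayed near the line at 1.

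Relative to its partners, HOT3 was lower still in hot3-2 than by its own level for eIF1A, eIF5 and eIF2. HOT3 per summed eIF1A level was 0.220 and 0.234 in WT, 0.0555, 0.0801 and 0.0732 for the hot3-2 libraries, and 0.156 and 0.214 for those of hot3-3. The mean ratio in hot3-2 was 30.7% of that in WT for eIF1A, 22.7% for eIF5, 26.5% for eIF2, and for eIF1 it was 0.037 against 0.074, and all 3 libraries were below WT in each. In hot3-3, where HOT3 was higher, the ratio was still 81.6% of WT for eIF1A, 48.8% for eIF5 and 68.1% for eIF2, with both libraries below WT, and 140.0% for eIF1, with both above. Against other factors the HOT3 ratio in hot3-2 was 28.1% of WT for eIF3, 27.8% for eIF5A, 36.3% for eIF4 and 47.8% for PABP. In hot3-3 it was 69.4% for eIF3 and 74.3% for eIF5A, overlapped WT for eIF4 and was above WT for PABP. Low ratios were thus not particular to the partners. Summing the 3 eIF5B genes gave 42.2% of WT for eIF1A in hot3-2 and 87.1% in hot3-3, where the libraries overlapped WT. For eIF5 and eIF2 the summed ratio was below WT in every mutant library. For eIF1 it was below WT in hot3-2 and above WT in hot3-3. These ratios are a description, since an exact permutation test of 3 against 2 libraries cannot go below 0.2, or 0.333 for 2 against 2. They compare transcripts and not proteins.

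eIF3, the large scaffold that links the small subunit to mRNA and to the other factors, was the largest group in which every gene rose. The genes of eIF1A, eIF2 and eIF5 also all rose in both alleles (adjusted P below 0.05 in edgeR), and those of eIF5A all had positive changes. All 17 eIF3 genes, for 12 subunits, passed that rule in both alleles, where 26.2% and 27.0% of all tested genes were higher. Their log2 changes were 0.49 to 1.69 in hot3-2 and 0.48 to 1.84 in hot3-3. Their medians were 0.96 in each allele, and in all 17 the 5 mutant libraries lay above WT, as in 29.6% of all tested genes. At the study's threshold 6 passed in hot3-2 and 8 in hot3-3, beside 7.80% and 9.63% of all tested genes. The summed eIF3 level was 690.6 ± 15.9 CPM per kb in WT (SD, n = 2), 1292 ± 23.8 in hot3-2 (SD, n = 3) and 1366 ± 10.9 in hot3-3 (SD, n = 2).

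Of the core subunit genes, eIF3a, eIF3b1 and eIF3c1 rose by similar amounts. The copy eIF3b2 rose less, by 0.69 in hot3-2 and 0.91 in hot3-3 on the log2 scale, and eIF3c2 is described below. eIF3a (AT4G11420) had 166 and 156.2 CPM in WT, 338, 399.7 and 367.5 CPM in hot3-2, and 419.9 and 413.3 CPM in hot3-3, log2 changes of 1.19 and 1.37. eIF3b1 (AT5G27640) had 114 and 108.5 CPM in WT, 234, 238.5 and 237.2 CPM in hot3-2, and 264.3 and 257.4 CPM in hot3-3, log2 changes of 1.09 and 1.23. eIF3c1 (AT3G56150) had 221.7 and 212.2 CPM in WT, 425.1, 420.3 and 424.9 CPM in hot3-2, and 476.5 and 465.9 CPM in hot3-3, log2 changes of 0.96 and 1.12. In each the 3 genotypes were apart, with hot3-3 the highest. The hot3-3 libraries lay above all those of hot3-2 in 4696 of 20795 tested genes. Between the alleles, eIF3a, eIF3b1 and eIF3c1 had adjusted P values of 0.219, 0.22 and 0.174 in edgeR. Against WT, the adjusted P values of these 3 genes lay between 3.38e-06 and 9.09e-06 in edgeR. Exons of eIF3b1 overlap AT5G27630 on the other strand by 394 bases.

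Other subunits past the study's threshold were eIF3e, eIF3f and eIF3i1. eIF3e (AT3G57290) had 90.1 and 89.3 CPM in WT, 179.9, 171.2 and 172.4 CPM in hot3-2, and 188 and 186.1 CPM in hot3-3. eIF3f (AT2G39990) had 80.1 and 73.6 CPM in WT, 186, 176 and 190.4 CPM in hot3-2, and 194.3 and 193.9 CPM in hot3-3. eIF3i1 (AT2G46280), a WD40 repeat subunit, had 118.4 and 119.5 CPM in WT, 256.3, 244.6 and 249 CPM in hot3-2, and 274.9 and 266.6 CPM in hot3-3. Mutant libraries were far above WT in all of them. Exons of eIF3i1 overlap AT2G46270 on the other strand by 246 bases, and those of eIF3e overlap AT3G57300 by 66 bases. The log2 changes were 0.96 and 1.06 for eIF3e, 1.26 and 1.34 for eIF3f, and 1.07 and 1.19 for eIF3i1 at edgeR adjusted P values of 3.71e-06 to 8.61e-06.

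The largest changes in eIF3 belonged to minor copies. eIF3i2 (AT2G46290), next to eIF3i1 on chromosome 2, had 7.07 and 5.87 CPM in WT, 19.8 to 22.5 CPM in the 3 hot3-2 libraries, and 22.8 and 22.4 CPM in hot3-3. eIF3g2 (AT5G06000), a copy of the RNA-binding subunit eIF3g, had 3.32 and 3.32 CPM in WT, 7.61, 8.78 and 8.45 CPM in hot3-2, and 12.1 and 11.8 CPM in hot3-3. The log2 changes were 1.69 ± 0.12 (SE) and 1.81 ± 0.12 (SE) for eIF3i2 and 1.31 ± 0.13 (SE) and 1.84 ± 0.14 (SE) for eIF3g2 at edgeR adjusted P values of 5.31e-06 to 5.69e-05. The major copy eIF3g1 (AT3G11400), with the highest level per kilobase in eIF3, had 114.3 and 105.6 CPM in WT, 224.3, 200.3 and 215.2 CPM in hot3-2, and 213.1 and 214.2 CPM in hot3-3. It changed by 0.96 in each allele (adjusted P of 1.79e-05 and 2.19e-05 in edgeR), and still held 93.0% and 93.2% of the eIF3g level per kilobase in hot3-3, against 96.0% and 96.3% in WT. The smallest change in eIF3 was that of eIF3m-2, at 0.49 and 0.48. eIF3l is uncertain, since it shares an identical stretch of 980 bases with a second locus.

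The eIF4 factors, which bind the cap and unwind the mRNA leader, moved less evenly than eIF3. Of 10 genes, 6 were higher in each allele (adjusted P below 0.05 in edgeR), beside 26.2% and 27.0% of all tested genes. By that rule 0 were lower, beside 23.1% and 24.1% of all tested genes. A negative change with an unadjusted P below 0.05 was seen in 0, and in 5589 and 5641 of all 20795 tested genes. The helicase eIF4A1 (AT3G13920), the most abundant of them per kilobase, had 545.8 and 530.1 CPM in WT, 740.2, 688.4 and 726.1 CPM in hot3-2, and 698.3 and 710.8 CPM in hot3-3. Its log2 changes of 0.42 ± 0.07 (SE) and 0.39 ± 0.07 (SE) had adjusted P values of 0.000943 and 0.00209 in edgeR. eIF4A3 (AT1G72730), a related DEAD-box helicase gene, had 11.4 and 10.02 CPM in WT, 22.1, 19.1 and 20.8 CPM in hot3-2, and 25.7 and 24.1 CPM in hot3-3. All mutant libraries were above WT, and its changes were 0.96 ± 0.11 (SE) and 1.22 ± 0.11 (SE) at edgeR adjusted P values of 8.9e-05 and 2.46e-05. The cap-binding proteins eIF4E1 and eIF(iso)4E rose by 0.85 to 0.97. The scaffold genes differed among themselves, since eIF(iso)4G2 rose by 0.62 and 0.83 (adjusted P of 0.000365 and 8.52e-05 in edgeR), with all mutant libraries above WT, while the values were -0.01 and 0.08 for eIF4G and 0.19 and 0.17 for eIF(iso)4G1. Those of the eIF4A cofactors eIF4B1 and eIF4B2 were -0.08 to -0.07, and neither these nor eIF4G and eIF(iso)4G1 passed the test.

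PABPs bind the poly(A) tail and eIF4G. Their summed level per kilobase was 1.097 times WT in hot3-2 and 1.048 times in hot3-3, but the 3 genes moved in different directions. PAB2 (AT4G34110), the most abundant, had 400.3 and 400.1 CPM in WT, 339.8, 359.5 and 355.4 CPM in hot3-2, and 310.8 and 297.3 CPM in hot3-3. All mutant libraries were below WT. Its log2 changes were -0.19 ± 0.07 (SE) and -0.40 ± 0.07 (SE) at edgeR adjusted P values of 0.0436 and 0.00182. The first was no longer below 0.05 without hot3-2 replicate 1 (0.0882), 2 (0.0623) or 3 (0.120), or without hot3-3 replicate 1 (0.0855) or 2 (0.0851). PAB4 rose by 0.70 and 0.73 (adjusted P of 8.01e-05 and 8.49e-05 in edgeR).

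eIF5A carries the hypusine residue and acts mainly in elongation and termination. eIF5A-2/FBR12 (AT1G26630) had the highest level per kilobase of all 48 genes and held 86.8% and 87.5% of the eIF5A level in WT. It had 584 and 533.3 CPM in WT, 1154, 1059 and 1129 CPM in hot3-2, and 1093 and 1087 CPM in hot3-3. The mutant libraries were all above WT. Its log2 changes were 0.996 ± 0.08 (SE) and 0.96 ± 0.08 (SE) at edgeR adjusted P values of 1.12e-05 and 1.63e-05, and both were just under the fold limit. eIF5A-1 rose by 0.46 and 0.47 (adjusted P of 0.00895 and 0.0107 in edgeR), the second becoming 0.0552 without hot3-3 replicate 1. eIF5A-3 had values of 0.25 and 0.11 (adjusted P of 0.0338 and 0.338 in edgeR).

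The mix of copies shifted in several factors. Per kilobase, eIF5-1 made up 67.0% and 70.0% of the eIF5 level in WT, 83.9% to 84.9% in the hot3-2 libraries, and 85.4% and 86.2% in hot3-3. PAB2 held 59.5% and 60.7% of the PABP level in WT, 46.7% to 49.7% in the hot3-2 libraries, and 43.2% and 43.9% in hot3-3. The corresponding PAB4 shares were 20.5% and 21.9%, 30.3% to 32.4%, and 33.3% and 33.6%. eIF1-1 held 39.2% and 40.7% of the eIF1 level in WT, 30.1% to 30.6% in the hot3-2 libraries, and 27.2% and 30.0% in hot3-3. In these 3 factors the WT and mutant libraries did not overlap. By contrast eIF3d1 held 50.3% and 54.4% of the eIF3d level in WT and 50.5% to 51.7% in hot3-2, where the groups overlapped.

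**Figure D4:**
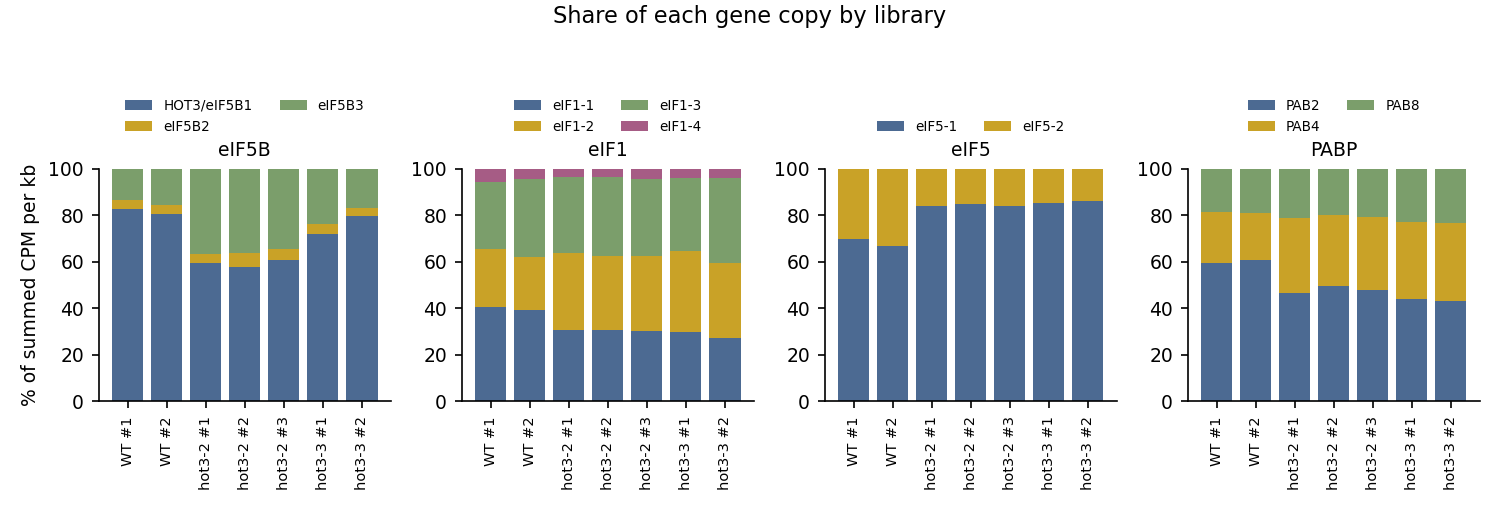
Share of each gene copy in the summed CPM per kb of its factor (y axis, percent) in each of the 7 libraries, for eIF5B, eIF1, eIF5 and PABP. The HOT3 share is lowest in hot3-2 at 58.0% to 60.8%, the eIF5-1 share is above 83% and the PAB2 share is below 50% in all 5 mutant libraries.

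The alleles were then compared directly. In hot3-3 against hot3-2, 3 of 48 genes were higher at an adjusted P below 0.05 in edgeR (4.86% of all tested genes) and 0 were lower (4.46% of all tested genes). DESeq2 gave 2 and 0. At an unadjusted P below 0.05 in edgeR, 8 were higher (16.7%, beside 12.9% of all tested genes). By that rule 2 were lower, as were 2678 of all 20795 tested genes. HOT3 differed most, by 1.39 ± 0.14 (SE; edgeR adjusted P of 0.00107), and was the 1 gene past the study's threshold (0.856% of all genes, and 0 lower beside 0.351%). Without hot3-2 replicate 3 its difference was 1.42 with an adjusted P of 0.0117 in edgeR. eIF3g2 differed by 0.53 ± 0.11 (SE) and eIF5-1 by 0.31 ± 0.08 (SE) at edgeR adjusted P values of 0.0222 and 0.0399. The difference of eIF5-1 had an adjusted P of 0.0791 to 0.182 in edgeR after any one mutant library was left out, and that of eIF3g2 one of 0.0829 to 0.0966 without hot3-2 replicate 1 or 3 or either hot3-3 library. The median difference over the 48 genes was 0.02.

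A list of 35 further genes for initiation or for factors that act on it was examined beside the 48, and 27 of them passed the filter on low counts. With an adjusted P below 0.05 in edgeR, 19 of 27 rose in hot3-2 and 20 in hot3-3, beside 26.2% and 27.0% of all tested genes. By that rule 0 fell in hot3-2 and 1 in hot3-3, beside 23.1% and 24.1% of all tested genes. A negative change with an unadjusted P below 0.05 in edgeR was seen in 3 and 4, and in 5589 and 5641 of all 20795 tested genes. At the study's threshold 7 of 27 were higher in each allele, beside 7.80% and 9.63% of all tested genes. The medians were 0.47 and 0.53 on the log2 scale.

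The most marked of these were second copies that were close to silent in WT. eIF3c2 (AT3G22860, chromosome 3, 8090654 to 8093248), annotated as a second eIF3c gene, had 4 and 6 counts in WT, 150, 107 and 153 counts in hot3-2, and 285 and 397 counts in hot3-3. The gene AT2G18720, annotated in the family of elongation factor EF1A and eIF2gamma, had 6 and 2 counts in WT, 187, 115 and 128 counts in hot3-2, and 327 and 536 counts in hot3-3. eIF6B (AT2G39820), a copy of the factor eIF6 that keeps free large subunits from joining, had 1 and 0 counts in WT, 38, 32 and 34 counts in hot3-2, and 71 and 83 counts in hot3-3. From depth-scaled counts, the ratio of hot3-2 to WT was 26.9 (95% interval 14.5 to 56.5) for eIF3c2, 35.3 (17.7 to 82.2) for AT2G18720 and 68.3 (12.0 to 2720) for eIF6B. In hot3-3 the ratios were 45.2 (24.5 to 94.8), 71.6 (36.2 to 166) and 102 (18.1 to 4060). These exact intervals cover counting error only. Exons of AT2G18720 overlap AT2G18721 on the other strand by 87 bases, and those of eIF6B overlap AT2G39830 by 8 bases. The fitted log2 changes were 4.73 and 5.50 for eIF3c2 at edgeR adjusted P values of 3.03e-06 and 1.33e-06, and 5.10 and 6.12 for AT2G18720, with 4.5e-06 and 1.56e-06 in edgeR. Even so, eIF3c2 stayed far below eIF3c1, at 12.5 CPM against 471 CPM in hot3-3.

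Between the alleles eIF3c2 was higher in hot3-3 by 0.77 ± 0.14 (SE) and AT2G18720 by 1.02 ± 0.16 (SE) at edgeR adjusted P values of 0.0124 and 0.00655. For eIF3c2 this became 0.0532 in edgeR without hot3-2 replicate 1 and 0.0645 without hot3-3 replicate 1. Among the other genes of the list, eIF6A (AT3G55620), the major eIF6 gene, had 68.4 and 66.1 CPM in WT, 229.8, 216 and 220.6 CPM in hot3-2, and 252.1 and 256 CPM in hot3-3, log2 changes of 1.72 and 1.92 at edgeR adjusted P values of 9.52e-07 and 8.14e-07. PAB5 (AT1G71770) had 2 and 8 counts in WT and 17 to 107 in the mutant libraries, with log2 changes of 2.57 and 3.38 (adjusted P of 0.00101 and 0.000147 in edgeR). Its exons overlap AT1G71760 on the other strand by 93 bases. eIF3l2 (AT5G25757), which shares the 980 bases with eIF3l, changed by 1.06 and 1.16, and the first was 0.96 without WT replicate 2. PAB6 (AT3G16380), a poly(A)-binding protein gene named after its values were seen, was the 1 gene of the list that fell in hot3-3. It had 18.3 and 17.5 CPM in WT, 14.8 to 16.1 CPM in the hot3-2 libraries, and 10.5 and 11.5 CPM in hot3-3. The levels of PAB6 did not overlap between genotypes, with hot3-3 below hot3-2 as in 5232 of 20795 tested genes. Its changes were -0.22 and -0.70 (adjusted P of 0.0796 and 0.000517 in edgeR), and the difference of hot3-3 from hot3-2 was -0.47 ± 0.10 (SE; edgeR adjusted P of 0.019), where the adjusted P became 0.0615 to 0.104 without hot3-2 replicate 1 or 3 or either hot3-3 library. Exons of PAB6 overlap AT3G16370 on the other strand by 426 bases. DOHH, the second enzyme of hypusine synthesis on eIF5A, named here after its values were seen, rose by 1.02 and 1.104 (adjusted P of 1.06e-05 and 8.09e-06 in edgeR).

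**Figure D5:**
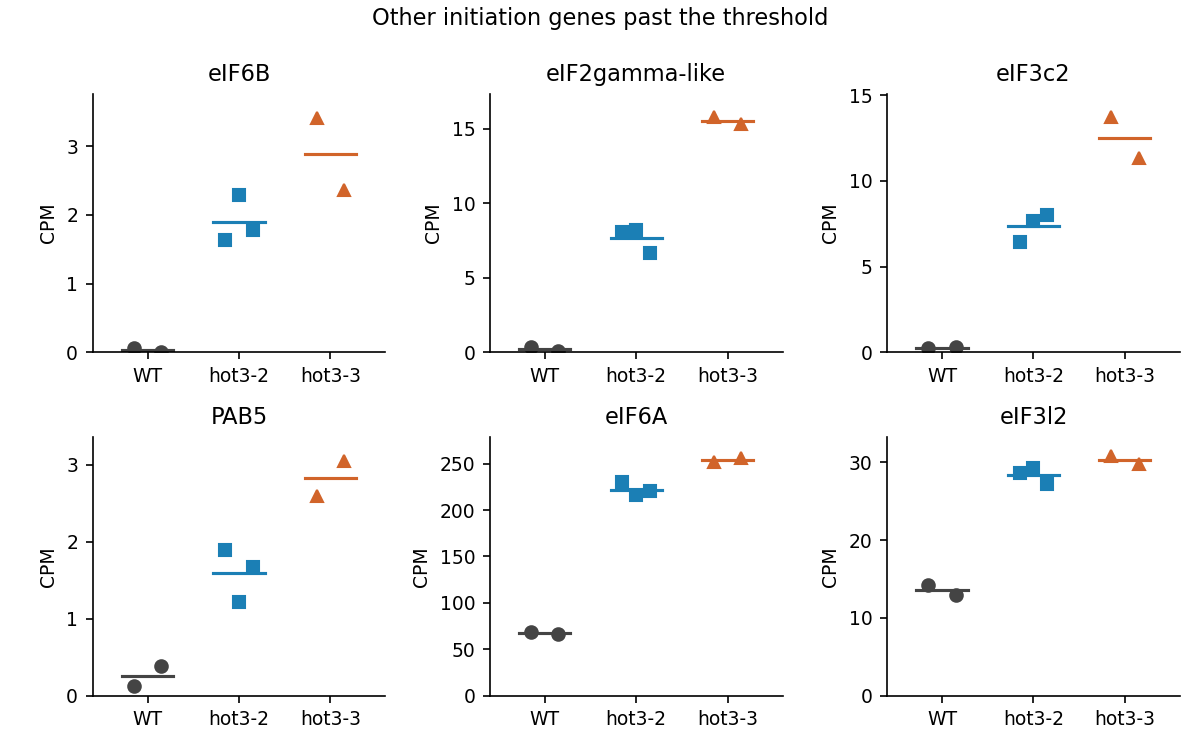
Normalised counts (CPM, y axis) of 6 further initiation genes past the study's threshold, by genotype; points are libraries and lines are group means. eIF6B, the eIF2gamma-like gene AT2G18720, eIF3c2 and PAB5 lie close to 0 in WT and are above WT in all 5 mutant libraries.

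Marker genes were listed to show what else moved in these whole seedlings. The summed level of 6 leaf photosynthesis genes was 42820 and 44380 CPM in WT, 30490 to 30910 CPM in the hot3-2 libraries, and 26790 and 28140 CPM in hot3-3, and 4 and 5 of the 6 were lower with an adjusted P below 0.05 in edgeR (23.1% and 24.1% of all tested genes). For 6 root genes the sum was 14.4 and 18.3 CPM in WT, 23.1 to 33.5 CPM in the hot3-2 libraries, and 26.9 and 31.5 CPM in hot3-3, with 2 and 4 of 6 higher (26.2% and 27.0% of all tested genes). For 10 genes of dividing cells it was 121.7 and 132 CPM in WT, 139.3 to 145.2 CPM in the hot3-2 libraries, and 139.3 and 142.5 CPM in hot3-3. Of these 10, 2 were higher in each allele, and 1 and 2 lower, shares under those of all tested genes. CYCB1;1 rose from a mean of 6.1 CPM in WT to 20.8 in hot3-2 and 32.2 in hot3-3. CDKB1;1 also rose in both alleles, though by less (adjusted P of 0.00679 and 0.00387 in edgeR). In hot3-2, 4 of the 10 had a negative change, and in hot3-3 7 did, with median log2 changes of 0.09 and -0.08. Seed storage genes (4) summed to 51.9 and 125.6 CPM in WT, 18.8 to 39.2 CPM in the hot3-2 libraries, and 223.5 and 377.6 CPM in hot3-3, and 4 flower genes to 3.08 to 6.09 CPM over all libraries. No marker was at 0 in any library. The part of these shifts in the initiation factor changes was not tested.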

How the data were processed

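The authors deposited one table per library of raw read counts per gene, with the exonic length of each gene. Per the study's methods they used cutadapt (4.2) for trimming, STAR (2.7.10b) for mapping to TAIR10 and featureCounts (2.0.3) for counting uniquely mapped pairs. The versions are those of the submitters' processing notes, and the study's methods name other versions of cutadapt and STAR. The strand setting was not given in the sources used here. Exons of 10 of the 48 genes overlap exons on the other strand, where reads can be told apart only by strand. Unique counting leaves out pairs that fit near-identical copies. Coordinates and promoter windows are from the RefSeq annotation of TAIR10.1, in which 27445 genes matched by locus, 99.36% of them with the deposited length.

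One model was fitted to all 7 libraries with edgeR 4.0.16 under R 4.3.3, using TMM scaling, filterByExpr (minimum count 10), genotype as factor and no covariate. Contrasts used the quasi-likelihood F test with Benjamini-Hochberg adjustment over 20795 genes. CPM are counts scaled by the TMM-adjusted library size, and CPM per kb divide by the deposited length. SE was taken from the F statistic, and the script was tested on simulated data. Calls used the study's threshold (adjusted P below 0.01, log2 change of at least 1) and an adjusted P below 0.05 with no fold limit. Library totals were 14090881 to 34696683, no pair of replicates agreed within sampling noise, and groups came from the sample labels. Members and lists were chosen with earlier results of these data known, so no list was tested as a set.

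Per-library values are given for eIF5B and eIF1A genes, members past the study's threshold or differing between alleles, and the member of each other factor with the highest CPM per kb; of the further initiation genes, for the 6 largest changes past that threshold. One gene of that list was dropped because its annotation names another protein. Alternatives were other scalings, DESeq2 1.42.0, no filter, fewer samples in the fit, thinning, a replicate block and each library left out.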

Additional observations from a re-analysis of the deposited data

Results flagged for a closer look

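Among the 48 genes and the further initiation genes, 6 differed between the alleles by the direct test (hot3-3 against hot3-2, adjusted P below 0.05 in edgeR). HOT3 was higher in hot3-3 by 1.39 on the log2 scale, AT2G18720 (eIF2gamma-like) by 1.02, eIF3c2 by 0.77, eIF3g2 by 0.53 and eIF5-1 by 0.31. In HOT3, AT2G18720, eIF3c2, eIF3g2 and eIF5-1 both hot3-3 libraries lay above all 3 hot3-2 libraries, as in 4696 of 20795 tested genes. PAB6 was lower in hot3-3, at -0.47, with both libraries below those of hot3-2, as in 5232 of 20795 tested genes. The direct test had picked these 6 genes, so the separation of their libraries adds no support. Groups of 2 and 3 libraries were too small for a check of single outlying samples.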

How the results depend on the processing

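With an adjusted P below 0.05 and no fold limit, in place of the study's threshold, the members called higher went from 8 to 38 in hot3-2, 12 to 38 in hot3-3 and 1 to 3 between the alleles, and those lower from 0 to 3 in each of hot3-2 and hot3-3. With an adjusted P below 0.01 and no fold limit the counts were 35 and 36 higher and 2 lower in each. Leaving out single libraries gave 8 to 12 and 11 to 15 members at the study's threshold, 35 to 39 and 36 to 38 higher and 2 to 4 and 2 to 3 lower at 0.05. Between the alleles it gave 0 to 1 at the study's threshold, and 1 to 5 higher and 0 to 1 lower at 0.05, where a fit of those 2 groups alone gave 5 and 1. Where 1 WT library remained, its spread was assumed to be that of the other groups. Under DESeq2, other scalings, no filter and thinning every count of calls was within 1.5 times its main value, and no named change reversed where either value passed the test.

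Replicate numbers were not shown to pair the libraries: same-numbered libraries deviated together with r of 0.031 to 0.181. With the replicate block, members lower in hot3-2 at 0.05 went from 3 to 1, without eIF1-1 (adjusted P of 0.0605 in edgeR) and PAB2 (0.174), and members higher between the alleles from 3 to 1, without eIF5-1 (0.196) and eIF3g2 (0.0904). Of 2016 comparisons of a member's change under an alternative with its main value, 62 lost and 14 gained an adjusted P below 0.05; eIF5-2, PAB2 and eIF5A-3 in hot3-2 made up most of the losses. Shares by raw counts differed from those per kilobase by more than 1 SD in 100 of 117 cases. Depth limits the genes near 0 counts in WT.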
